A study of Mus musculus with 6 samples.

Results

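The genes described here belong to the MHC class I antigen presentation pathway of the mouse. The 10 members were taken by symbol from a table of 24421 genes, and all 10 were present in it and passed the filter on low counts. They are H2-K1 and H2-D1 (class I heavy chains), B2m (the light chain), Tap1, Tap2 and Tapbp (peptide transport and loading), Psmb8, Psmb9 and Psmb10 (immunoproteasome subunits) and Nlrc5 (a regulator). RNA was sequenced from 4T1-tetL1(GLucAI) cells, a breast carcinoma line with the strain label BALB/cfC3H into which a LINE-1 (L1) reporter, switched on by doxycycline, was integrated. The comparison asks how the transcriptome differs once the L1 cassette is switched on.

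There were 3 untreated libraries, whose treatment tag reads Vehicle, and 3 libraries labelled doxycycline, from cells kept in 400 ng/mL of the drug for 48 h. Both groups carry the same integrated cassette, which holds the doxycycline-dependent activator, a blasticidin resistance gene, firefly luciferase and a recoded mouse L1 with a Gaussia luciferase readout. The line is a selected population and not a single clone. No library came from cells without the cassette, so the drug itself and the L1 it induces cannot be told apart. The cassette transcript was not analysed here, and the directions below rest on the labels. Library totals ran from 31653464 to 43631312 counts, and 3 counts corresponded to 0.0683 to 0.0944 counts scaled to a common library size (CPM), which bounds counting error alone. The epithelial markers Krt8 and Krt18 were at 381 to 453 and 615 to 669 CPM, while 12 leukocyte markers summed to 0.865 to 1.14 CPM in untreated libraries and 1.04 to 1.32 CPM in libraries labelled doxycycline, with Adgre1 and Tyrobp at 0 in all 6. In bulk RNA, fewer cells of a type and less RNA per cell cannot be told apart.

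Class I molecules carry peptides from inside the cell to its surface, where CD8 T cells inspect them. Peptides are cut by the proteasome, whose immunoproteasome form replaces the catalytic subunits Psmb5, Psmb6 and Psmb7 with Psmb8, Psmb9 and Psmb10. They are pumped into the endoplasmic reticulum by the Tap1-Tap2 transporter and loaded onto a heavy chain paired with B2m, with the help of tapasin (Tapbp). Interferons raise many of these genes, in part through IRF1, and NLRC5 acts on an X and Y box module in class I promoters, beside which κB and interferon response elements lie.

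Promoter windows were matched by symbol for 8 of 10 members in RefSeq (GRCm38.p6). Each window held 250 bases before and 50 bases from the annotated start site, and Tap2 and Nlrc5 were not among them. The 4 shown here belong to the heavy chains, the light chain and the transporter, and are printed 5′ to 3′ on the strand of the gene up to the base before the start site. Capitals mark every match to the motifs searched on both strands. These were a κB motif of the class I type (GGGNNTTCC), another κB motif (GGANTTTCC), a short interferon-stimulated response element (GAAANNGAA), an interferon regulatory factor element (GAANNGAAA, added with the windows in view), the GAS element (TTCNNNGAA), the X2 box core (TGACG) and the Y box core (ATTGG). Positions count back from the base before the start site, which is -1. No match overlapped another.
H2-K1, chr17:34000348-34000597, minus strand: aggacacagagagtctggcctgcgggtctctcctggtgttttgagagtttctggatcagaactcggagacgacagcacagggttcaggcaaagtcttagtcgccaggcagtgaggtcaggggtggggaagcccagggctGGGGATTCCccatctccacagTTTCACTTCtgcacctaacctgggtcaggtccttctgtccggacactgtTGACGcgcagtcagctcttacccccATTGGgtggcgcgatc
H2-D1, chr17:35262844-35263093, plus strand: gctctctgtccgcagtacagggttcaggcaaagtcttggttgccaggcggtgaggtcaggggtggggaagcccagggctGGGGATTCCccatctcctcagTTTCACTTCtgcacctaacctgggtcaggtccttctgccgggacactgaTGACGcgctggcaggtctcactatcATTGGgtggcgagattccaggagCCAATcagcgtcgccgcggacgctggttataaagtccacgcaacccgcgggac
B2m, chr2:122147437-122147686, plus strand: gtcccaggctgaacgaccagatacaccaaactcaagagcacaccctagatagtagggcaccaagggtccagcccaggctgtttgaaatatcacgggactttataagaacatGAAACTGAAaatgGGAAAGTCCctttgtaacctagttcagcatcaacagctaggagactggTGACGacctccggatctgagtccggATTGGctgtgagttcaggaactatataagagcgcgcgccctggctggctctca
Tap1, chr17:34187306-34187555, plus strand: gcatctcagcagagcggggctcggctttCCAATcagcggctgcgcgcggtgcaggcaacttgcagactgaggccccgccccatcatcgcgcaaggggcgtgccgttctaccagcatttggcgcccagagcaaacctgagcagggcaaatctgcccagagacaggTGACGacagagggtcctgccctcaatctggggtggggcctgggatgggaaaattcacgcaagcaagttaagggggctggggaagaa

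H2-K1 and H2-D1 shared their module in the same order and spacing. In both, the κB match GGGGATTCC was followed by TTTCACTTC after 21 bases, by the X2 core after 70 bases and by the Y box after 95 bases, counted from first base to first base. The κB match began at -111 in H2-K1 and at -171 in H2-D1, so the annotated starts fall at different places relative to the module. A further Y box on the other strand, CCAAT, lay at -53 in H2-D1. In H2-K1 it lay at base 9 from the start, within the 50 bases that are not printed. B2m held GAAACTGAA at -139, GGAAAGTCC at -126, an X2 core at -78 and a Y box at -53. The Tap1 window held an X2 core at -86 and a Y box at -222 on the other strand. The RefSeq start sites of Tap1 and Psmb9 lie 226 bases apart on opposite strands, so that 275 bases of their windows are the same DNA (chr17:34187306-34187580). The gene spans given below are from GENCODE M21, which reaches further out for some members. Psmb9 starts at 34187330 in RefSeq, while its GENCODE span ends at 34187764. The windows of H2-D1, Psmb8, Psmb9 and Tapbp lie inside their GENCODE spans. Psmb8 held the GAS match TTCCCAGAA at -97, Tapbp held 2 Y boxes, and Psmb10 held none of the letters searched. Of 27025 promoter windows of this length, 5.72% held the class I type of κB motif, 1.23% the other κB motif and 8.57% the short interferon-stimulated element. The interferon regulatory factor element was in 7.56%, GAS in 8.47%, the X2 core in 21.0% and the Y box in 37.9%. A match is a description of the letters and not of binding.

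None of the 10 genes passed the test, and how closely the difference was bounded varied between them. The interval ran from -12.7% to -0.801% for B2m, but from -34.1% to 13.7% for Tap1 and from -38.2% to 66.1% for Psmb9. At an adjusted p under 0.05 the edgeR quasi-likelihood test called 0 of 10 members, against 3.09% of all 13084 genes tested. DESeq2 and limma voom also called 0 of 10. At an unadjusted p under 0.05 there were 3 members, H2-D1, B2m and Psmb8, all lower in libraries labelled doxycycline, and 16.2% of all genes reached that level. The groups did not overlap for 2 members, B2m and Psmb8, both lower, while 11.1% of all genes were lower without overlap and 21.3% were separate in either direction. The median log2 fold change (libraries labelled doxycycline over untreated) was -0.084 over the members and 0.0025 over all genes. Estimates were below 0 for 7 members and above 0 for 3, while 50.8% of all genes tested were above 0. A p that misses the threshold does not show that the groups are alike, so each difference is given with its 95% confidence interval, not adjusted for the number of genes.

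**Figure D1:**
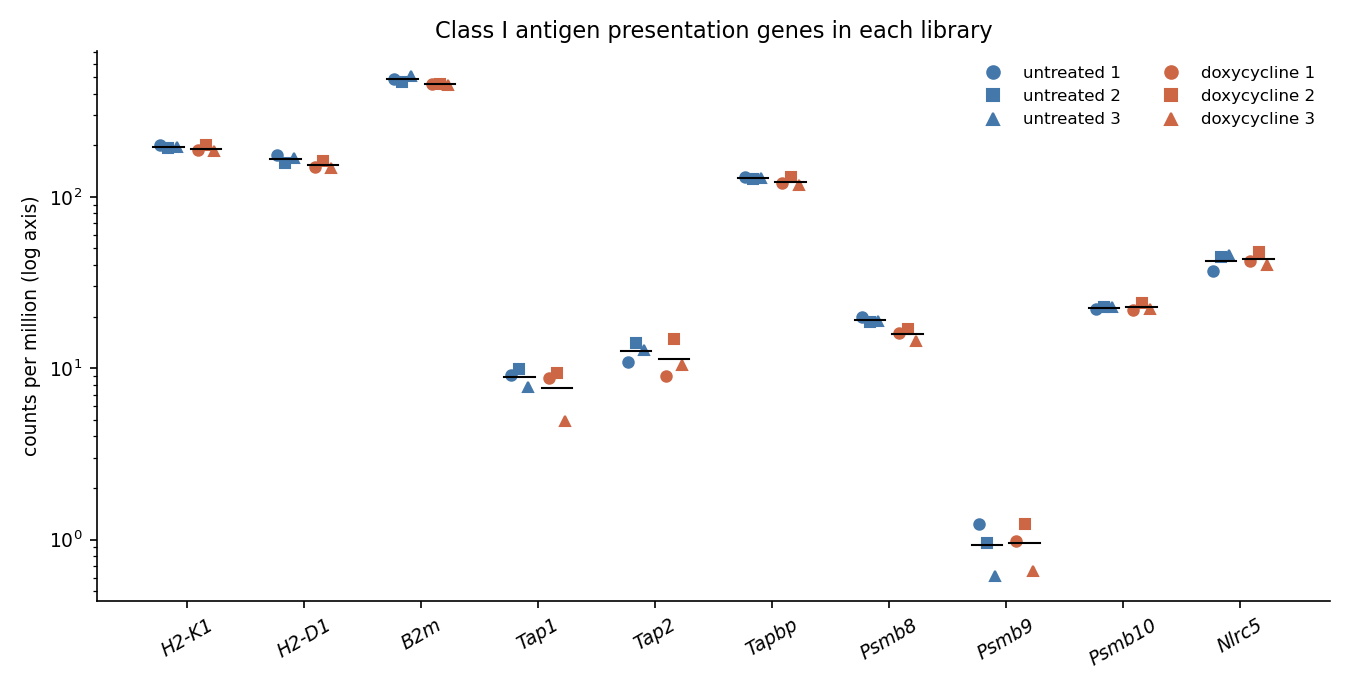
CPM on a log axis for the 10 class I genes in 3 untreated libraries (blue) and 3 libraries labelled doxycycline (orange); the marker shape is the replicate number and the black line the group mean. B2m lies between 448 and 509 CPM and Psmb9 between 0.61 and 1.23 CPM, and B2m and Psmb8 are the genes whose groups do not overlap.

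H2-K1 encodes the K heavy chain, the part of the class I molecule that holds the peptide (chromosome 17, 33996017 to 34000347, minus strand, GRCm38). It was at 200 CPM, 194 CPM and 196 CPM in untreated replicates 1 to 3, and at 187 CPM, 202 CPM and 185 CPM in the libraries labelled doxycycline. The second doxycycline library was the highest of the 6, and the other two lay below every untreated library. Its log2 fold change was -0.037 (SE 0.047, interval -0.13 to 0.060, adjusted p = 0.752, edgeR quasi-likelihood test). On a linear scale the interval runs from -8.87% to 4.22%.

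H2-D1, the D heavy chain, lies in the same complex (chromosome 17, 35262730 to 35267499, plus strand). Its levels were 175 CPM, 157 CPM and 168 CPM without the drug and 149 CPM, 162 CPM and 148 CPM with it. The groups overlapped through the second replicate of each, the lowest untreated and the highest doxycycline library. The difference was -0.13 on the log2 scale (SE 0.051, interval -0.23 to -0.021), with an adjusted p of 0.209 in the same test. This call turned on 1 library. Without doxycycline replicate 2, H2-D1 passed the threshold at a log2 fold change of -0.17 and an adjusted p of 0.00900 (edgeR). In that run 756 of 13237 genes tested were called, against 404 of 13084 with all libraries. Its adjusted p ran from 0.00900 to 0.556 over all alternatives.

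The heavy chains stand close in sequence, which bears on how their reads are counted. Between the H2-K1 and H2-D1 coding sequences of GENCODE M21, 91.1% of bases were identical in exon 2, 88.0% in exon 3 and 96.0% in exon 4. Exons 2 and 3 encode the peptide-binding domains and exon 4 the domain bound by CD8. The longest stretch shared without a difference was 91 bases of exon 4, shown because a read from within it would match either gene of this reference. Whether the alleles of these cells share it was not examined. It lies at chr17:33997343-33997433 on the minus strand in H2-K1 and at chr17:35265911-35266001 on the plus strand in H2-D1.
Shared stretch of H2-K1 and H2-D1: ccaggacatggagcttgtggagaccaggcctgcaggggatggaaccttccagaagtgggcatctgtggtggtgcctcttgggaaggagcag

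Of the 50-base windows of the transcript, 8.79% in H2-K1 and 14.3% in H2-D1 also occur in other genes, H2-Q1 among them for both. Among the other members this share was 2.0% for Tapbp, 0.861% for Tap1, 0.737% for Tap2 and 0 for the rest. The 4T1 line derives from BALB/c, which carries other H2 alleles than the C57BL/6 reference, and the loss of polymorphic reads was not tested. Some nearly identical rows held almost nothing: H2-Q6, H2-Q7, H2-Q8 and H2-Q9 were at 0 in all 6 libraries, and H2-L had 1 to 15 counts. With H2-K1, H2-D1, H2-L and every H2-Q row, 12 rows in all, summed to 1 row, an alternative added after the data were seen, the log2 fold change was -0.080 (interval -0.18 to 0.021, adjusted p = 0.440, edgeR). Without H2-Q5 and H2-Q10 in the sum, 10 rows, it was -0.082 (adjusted p = 0.423). The ratio of H2-K1 to H2-D1 counts was 1.14, 1.23 and 1.16 in untreated libraries and 1.26, 1.25 and 1.25 in libraries labelled doxycycline. The groups of this ratio, which was looked at after the levels were seen and was not tested, did not overlap. The share of such ratios that separate by group was not computed. Of all single genes tested, 21.3% were separate in either direction.

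B2m encodes β2-microglobulin, the invariant light chain (chromosome 2, 122147686 to 122153083, plus strand). It was the highest of the members, at 490 CPM, 467 CPM and 509 CPM in untreated libraries. In libraries labelled doxycycline it was at 459 CPM, 458 CPM and 448 CPM. All 3 of these lay below every untreated library. Its log2 fold change was -0.10 (SE 0.044, interval -0.20 to -0.012, adjusted p = 0.238, edgeR), a change of -6.96% with an interval from -12.7% to -0.801%. B2m therefore did not pass the test, and its groups differed by a small part of its level.

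Tap1 and Tap2 form the transporter that moves peptides into the endoplasmic reticulum (chromosome 17, plus strand, 34187553 to 34197225 and 34203527 to 34216321). Tap1 was at 9.06 CPM, 9.83 CPM and 7.74 CPM in untreated libraries and at 8.81 CPM, 9.33 CPM and 4.94 CPM in libraries labelled doxycycline. The third doxycycline library, with 189 counts against 280 to 398 in the other 5, stood below the rest. Tap1 had a log2 fold change of -0.21 (SE 0.18, interval -0.60 to 0.19, adjusted p = 0.635, edgeR), and without that library it was 0.033. Tap2 was at 10.8 CPM, 13.97 CPM and 12.8 CPM and, with the drug, at 8.995 CPM, 14.8 CPM and 10.4 CPM. Its lowest and its highest library were both labelled doxycycline. Tap2 had a log2 fold change of -0.12 (SE 0.15, interval -0.44 to 0.19, adjusted p = 0.740, edgeR), and it was 0.014 without doxycycline replicate 1. The ratio of Tap1 to Tap2 counts ran from 0.605 to 0.840 in untreated libraries and from 0.476 to 0.979 in libraries labelled doxycycline. How much of these ranges lies beyond counting error was not tested. Exons of Tap1 overlap Psmb9 on the opposite strand, those of Tap2 overlap Gm15821 and Gm20496, and the strand setting of the counting is not given in the sources used here.

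Tapbp encodes tapasin, which bridges the transporter and the empty class I molecule (chromosome 17, 33915899 to 33929292, plus strand). It was at 130 CPM, 127 CPM and 128 CPM in untreated libraries and at 120 CPM, 130 CPM and 117 CPM in libraries labelled doxycycline. The second doxycycline library was again the highest of the 6 while the other two were the lowest. Tapbp had a log2 fold change of -0.064 (SE 0.050, interval -0.17 to 0.039, adjusted p = 0.567, edgeR). Its exons overlap Gm19412 on the opposite strand.

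Psmb8 encodes the immunoproteasome subunit that takes the place of Psmb5, and it had the largest log2 difference of the members (chromosome 17, 34197721 to 34201454, plus strand). Untreated libraries were at 19.8 CPM, 18.6 CPM and 19.0 CPM. Libraries labelled doxycycline were at 16.1 CPM, 17.02 CPM and 14.4 CPM, all of them below the untreated range. Its log2 fold change was -0.27 (SE 0.088, interval -0.45 to -0.088, adjusted p = 0.107, edgeR), a change of -17.2% with an interval from -27.0% to -5.92%. The unadjusted p was 0.00574. Without doxycycline replicate 2, Psmb8 passed the threshold (log2 fold change -0.33, adjusted p = 0.0297, edgeR). Calls over all genes also rose in that run, from 404 to 756. Over all alternatives the adjusted p of Psmb8 ran from 0.0297 to 0.338. Its exons overlap Gm20496 on the opposite strand.

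Psmb9, the partner of Tap1 across their shared promoter and the replacement for Psmb6, was the lowest member (chromosome 17, 34181987 to 34187764, minus strand). It had 54, 32 and 23 counts in untreated libraries, or 1.23 CPM, 0.96 CPM and 0.61 CPM. In libraries labelled doxycycline it had 31, 50 and 25 counts, or 0.97 CPM, 1.22 CPM and 0.65 CPM. The ranges were nearly the same and the spread within each group was wide. The estimate was 0.019 on the log2 scale (SE 0.34, interval -0.69 to 0.73, adjusted p = 0.985, edgeR), so at this depth changes from -38.2% to 66.1% were within the interval. It was -0.21 without untreated replicate 3 and -0.22 without doxycycline replicate 2. A difference in Psmb9 was thus not detectable unless it was large.

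Psmb10, which replaces Psmb7, lies outside the H2 complex (chromosome 8, 105935735 to 105938444, minus strand). It was at 22.3 CPM, 22.8 CPM and 22.7 CPM in untreated libraries and at 21.9 CPM, 23.9 CPM and 22.2 CPM in libraries labelled doxycycline. The untreated values were close together and lay inside the doxycycline range. Psmb10 had a log2 fold change of 0.0068 (SE 0.076, interval -0.15 to 0.16, adjusted p = 0.977, edgeR), and it changed sign, to -0.0035, when scaled by library size only. It was -0.0033 without untreated replicate 1 and -0.033 without doxycycline replicate 2.

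Nlrc5 encodes the class I transactivator (chromosome 8, 94434356 to 94527272, plus strand). Its levels were 37.1 CPM, 44.8 CPM and 45.5 CPM in untreated libraries and 42.3 CPM, 47.5 CPM and 40.2 CPM with the drug. The lowest library was untreated and the highest labelled doxycycline. Nlrc5 had a log2 fold change of 0.031 (SE 0.078, interval -0.13 to 0.19, adjusted p = 0.893, edgeR), and it was -0.060 without untreated replicate 1 and -0.041 without doxycycline replicate 2. Its exons overlap 9330175E14Rik on the opposite strand.

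**Figure D2:**
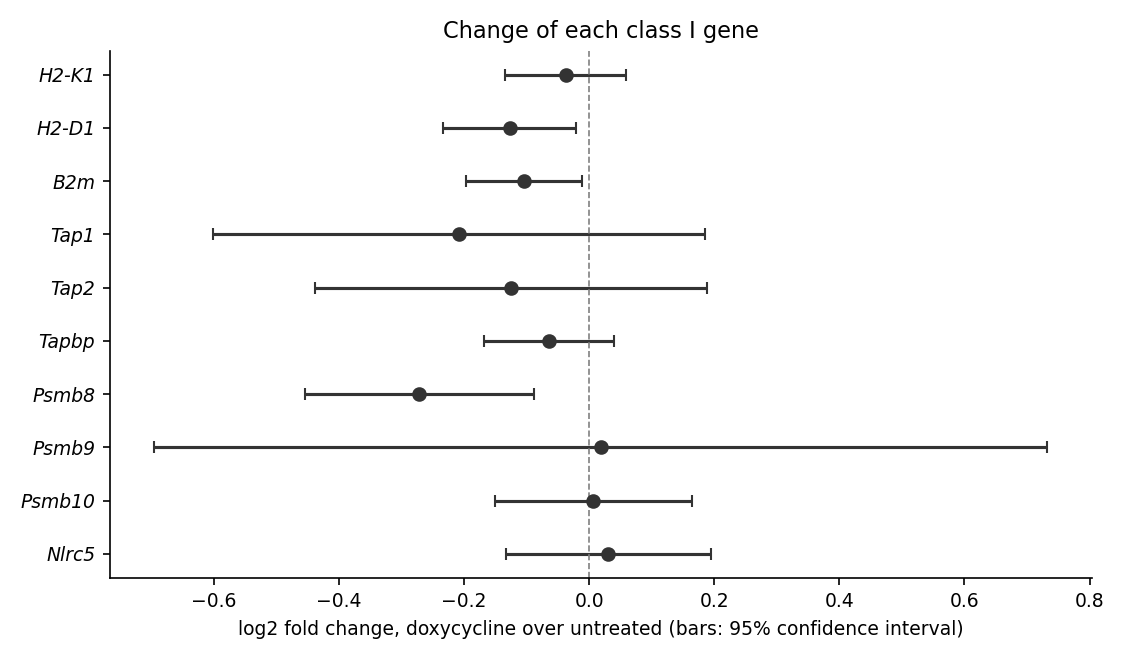
Log2 fold change of each class I gene, libraries labelled doxycycline over untreated libraries (points), with its 95% confidence interval derived from the edgeR F statistic (bars, unadjusted). The intervals of H2-D1, B2m and Psmb8 lie below 0 although none of the 3 passed the adjusted threshold, and that of Psmb9 is the widest.

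Levels of different genes were compared per kilobase of merged exons, as mean CPM per kilobase over the 6 libraries. B2m led at 549, followed by H2-K1 at 117, H2-D1 at 76.1 and Tapbp at 43.3. Psmb10 at 17.3 and Psmb8 at 10.7 came next, then Nlrc5 at 5.28, Tap2 at 3.47, Tap1 at 2.81 and Psmb9 at 0.697. The ranges over libraries of neighbours in this order did not overlap, except those of Tap2 and Tap1. The light chain thus exceeded either heavy chain in counts per length, and of the 10 members only Psmb9 lay below the transporter genes. The loss of heavy-chain reads that are shared or differ from the reference was not tested, so the distance in RNA is not known.

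The immunoproteasome genes were set against the subunits they replace, as the ratio of counts per kilobase within a library. Psmb8 to Psmb5 was 0.446, 0.484 and 0.489 in untreated libraries and 0.416, 0.395 and 0.338 in libraries labelled doxycycline. The groups did not overlap, and the mean went from 0.473 ± 0.0235 to 0.383 ± 0.0401 (SD, n = 3 each; exact two-sided permutation p = 0.10, the smallest p that 3 against 3 can give). Adjusted over the 3 pairs this p was 0.30. Psmb9 to Psmb6 was far lower, from 0.00504 to 0.00976 in untreated libraries and from 0.00524 to 0.00874 with the drug, with overlapping groups (exact permutation p = 1.0). Psmb10 to Psmb7 ran from 0.126 to 0.139 and from 0.125 to 0.137 (exact permutation p = 0.40, adjusted p = 0.60). All 3 immunoproteasome genes were therefore below their constitutive counterpart in every library, with Psmb8 the closest to it.

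**Figure D3:**
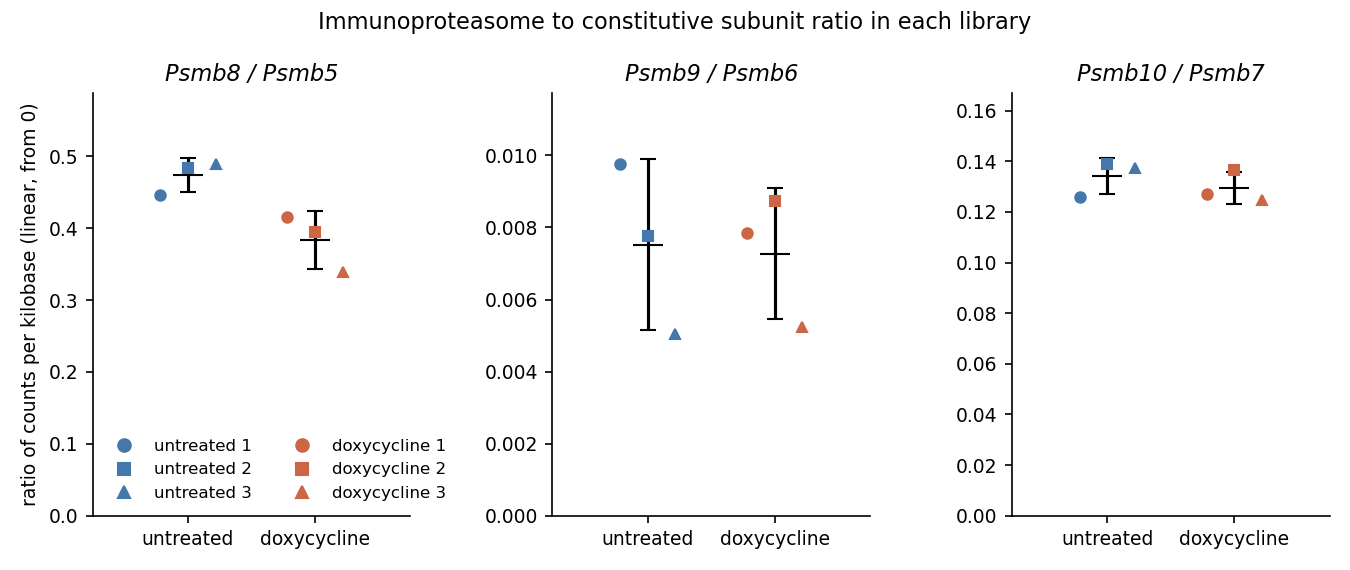
Ratio of counts per kilobase of each immunoproteasome gene to the constitutive subunit it replaces, in each library, on linear axes from 0 that differ between panels; black marks are the mean and SD of 3 libraries. The groups are apart for Psmb8 to Psmb5 and overlap for the other pairs.

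The libraries labelled doxycycline differed among themselves in the same way for most members. Replicate 2 was the highest of its group for 9 of 10 members, all except B2m, whereas this was so for 37.4% of all genes tested. Replicate 3 was the lowest of its group for 8 of 10, all except Tap2 and Psmb10, against 29.4% of all genes. Both held for 7 members and for 16.1% of all genes. The pattern was not particular to the members: H2-Q4, H2-T23, Psme1 and Psme2 of the other pathway lists had it, while others, such as Canx, did not. Over all genes, the replicate pairs with doxycycline replicate 2 also differed most (chi-square per degree of freedom 22.1 and 14.5). Averaged over the members, centred log2 CPM was 0.070, 0.075 and -0.0023 in untreated replicates 1 to 3 and -0.059, 0.12 and -0.21 in libraries labelled doxycycline. The spread within the treated group therefore spanned the whole of the untreated range. Doxycycline replicate 2 also had the highest share of the ribosomal precursor Rn45s, 12.1% of its counts against 8.83% to 11.04% in the other 5 libraries. The part of this in the pattern was not tested.

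**Figure D4:**
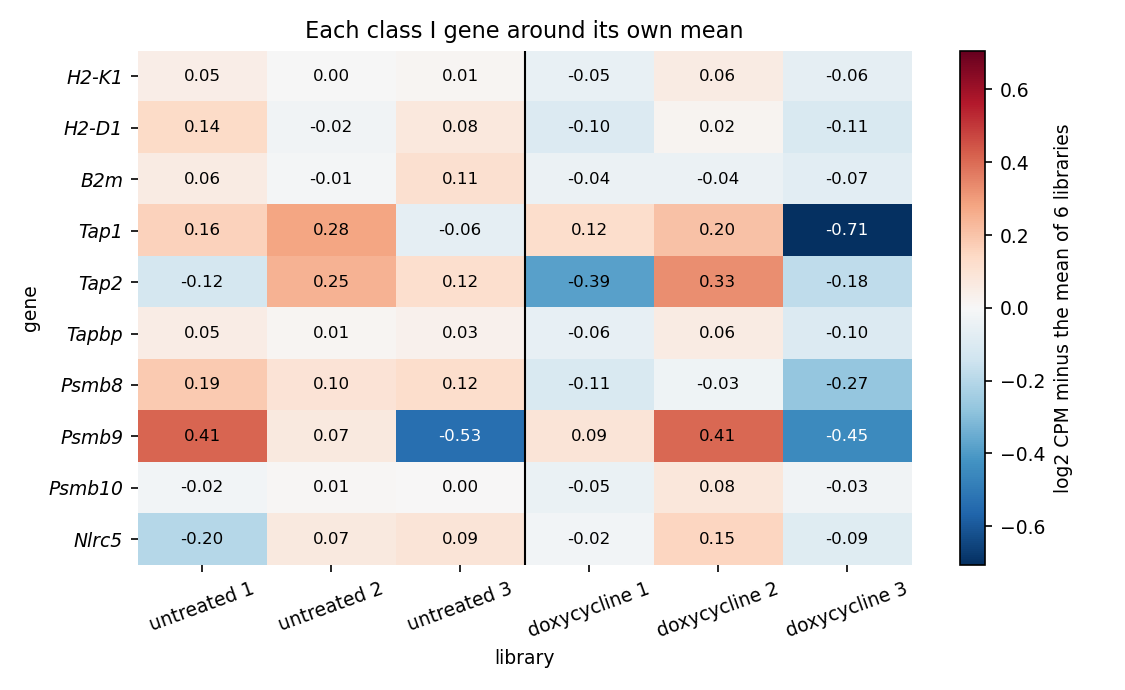
Log2 CPM of each class I gene (rows) in each library (columns) minus the mean of that gene over the 6 libraries; red is above and blue below the mean, and the vertical line parts untreated from doxycycline libraries. The doxycycline 2 column is the highest of its group in 9 of 10 rows, and the lowest value is Tap1 in doxycycline 3, at -0.71.

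The genes most like the mean profile of the members were found among 11648 other genes by the root mean square difference of centred log2 CPM over the 6 libraries. They were Ltbp3, a latent TGF-β binding protein, at 0.0121, Grb7, a receptor adaptor, at 0.0162, Ankrd9 at 0.0199, Tcf3, a bHLH transcription factor, at 0.0261 and Psme2 at 0.0268. Psme2 encodes a subunit of the PA28 proteasome activator and is itself a gene of the pathway. The measure covers 6 libraries and is a description.

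Among the other genes of the pathway, 1 of 69 tested passed the threshold, beside 3.09% of all genes tested. Of 29 class Ib and related genes, 28 were in the table, 9 were at 0 in every library and 14 could be tested, with 0 called. H2-Q4, the highest of those named, was at 51.4 CPM, 49.3 CPM and 53.1 CPM and, with the drug, at 45.7 CPM, 55.4 CPM and 41.3 CPM (log2 fold change -0.11, interval -0.28 to 0.062, adjusted p = 0.548, edgeR). H2-T23, whose product Qa-1 is read by NKG2 receptors, had a log2 fold change of -0.016 (interval -0.21 to 0.18). H2-M3, which presents formylated peptides, had 0.069 (interval -0.12 to 0.26). Mr1, which presents vitamin B metabolites to MAIT cells, came nearest to the threshold: its groups did not overlap, from 5.99 to 6.86 CPM untreated and from 3.97 to 5.71 CPM with the drug (log2 fold change -0.49, interval -0.80 to -0.18, adjusted p = 0.0840, edgeR). H2-Q7 was at 0 and H2-T22 had at most 2 counts in any library.

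Of 13 genes for peptide trimming and loading, 0 were called, and their log2 fold changes ran from -0.11 to 0.13 with a median of 0.0064. The lectin chaperones Calr and Canx had log2 fold changes of -0.015 and -0.024, and Pdia3, a thiol oxidoreductase of the loading complex, had -0.035. Erap1, the aminopeptidase that trims peptides in the endoplasmic reticulum, had 0.021 (interval -0.10 to 0.14). Tapbpl, a tapasin relative that edits peptides, had -0.11 (interval -0.42 to 0.21). The smallest adjusted p of this list was 0.434.

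Of 19 constitutive proteasome and activator genes, 0 were called, with a median log2 fold change of 0.033. Psmb5, Psmb6 and Psmb7 had log2 fold changes of 0.033, 0.067 and 0.054, with adjusted p of 0.890, 0.610 and 0.615 in edgeR. Psme1 and Psme2, the interferon-inducible PA28 subunits, had -0.075 and -0.078 (intervals -0.20 to 0.051 and -0.23 to 0.077). Psme3, the nuclear PA28γ, had 0.14 with groups that did not overlap, but an adjusted p of 0.109.

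Of 21 regulators, all tested, Jak2 alone passed. Jak2, a kinase of the interferon γ receptor, was at 166 CPM, 168 CPM and 165 CPM in untreated libraries and at 143 CPM, 133 CPM and 130 CPM in libraries labelled doxycycline. It fell by 0.30 on the log2 scale (SE 0.048, interval -0.40 to -0.20, adjusted p = 0.000682, edgeR), and the groups did not overlap. Irf1, a transcription factor for class I genes, did not pass: it was at 32.8 to 35.0 CPM and at 28.1 to 31.4 CPM (log2 fold change -0.21, interval -0.35 to -0.062, adjusted p = 0.121). Rfx5, an X box factor, had a log2 fold change of 0.0092 (interval -0.18 to 0.19). Rfxap and Rfxank, the other Rfx genes of this list, were lower without overlap but did not pass. Their log2 fold changes were -0.22 (interval -0.42 to -0.0086, adjusted p = 0.284, edgeR) and -0.29 (interval -0.55 to -0.024, adjusted p = 0.255, edgeR). Groups did not overlap for 6 of the 21 regulators, 5 lower and 1 higher. Of all genes tested, 11.1% were lower without overlap and 21.3% separate in either direction. Ciita, the class II transactivator, was at 0.187 to 0.287 CPM in all 6 libraries.

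The class II chains H2-Aa, H2-Ab1, H2-Eb1 and H2-Eb2 were at 0 to 0.209 CPM in every library. Of 10 class II genes, 4 were at 0 in every library and 2 could be tested, with 0 called. Cd74, the invariant chain, was at 9.79 to 10.8 CPM in untreated libraries and at 7.58 to 8.82 CPM in libraries labelled doxycycline, without overlap (log2 fold change -0.33, interval -0.56 to -0.10, adjusted p = 0.120, edgeR). H2-DMa, a chain of the class II peptide editor, was at 3.51 to 4.91 CPM and had a log2 fold change of -0.031 (interval -0.36 to 0.30). Per kilobase, Cd74 at 6.52 lay above the members Nlrc5, Tap2, Tap1 and Psmb9.

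**Figure D5:**
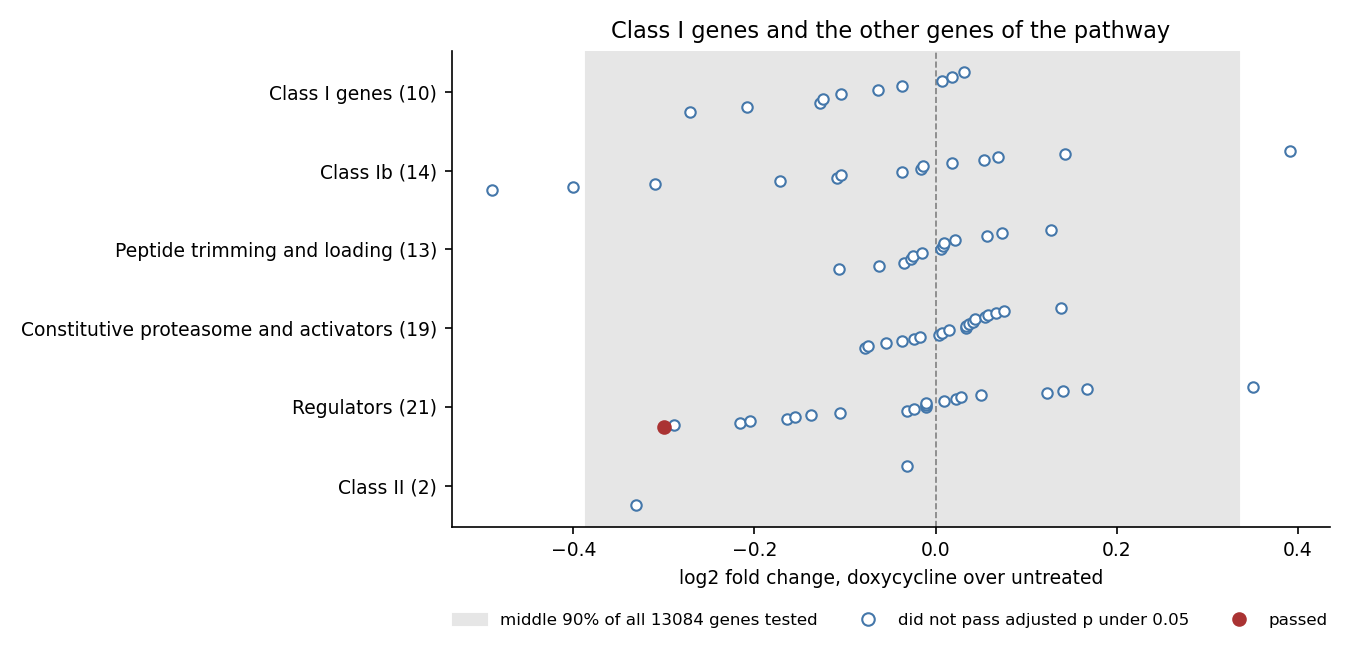
Log2 fold change, libraries labelled doxycycline over untreated, of the class I genes and of each other list of the pathway (number tested in brackets); open circles did not pass an adjusted p under 0.05, the filled circle is Jak2, and the grey band holds the middle 90% of all 13084 genes tested (-0.39 to 0.34). All 10 class I genes lie inside the band.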

How the data were processed

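RNA of 6 cultures of 4T1-tetL1(GLucAI) cells was depleted of ribosomal RNA and sequenced from libraries made with a strand-preserving kit. Per the submitters' processing notes and the methods of the study, the authors converted reads with bcl2fastq 2.20, aligned them to mm10/GRCm38 with STAR and counted them per gene with featureCounts (Subread 1.6.2). They deposited raw counts, not normalized, with replicates apart. The STAR version, strand setting and handling of reads with several positions are not given in the sources used here. Such reads can be lost or assigned to a related gene.

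Groups came from the sample titles. Of all 24421 genes, 13084 passed filterByExpr and entered the fit. The main test was edgeR 4.0.16's quasi-likelihood test in R 4.3.3 (TMM scaling, group as the only term, Benjamini-Hochberg adjustment over all genes tested, threshold 0.05). CPM used TMM-scaled totals, and log2 CPM a prior count of 2. The study used DESeq2, which is an alternative here (1.42.0), as is limma voom (3.58.1). Ratios were tested by exact permutation over libraries (SciPy). Replicate pairs differed beyond sampling noise (chi-square per degree of freedom 6.14 to 22.1). The study describes the replicates as biological triplicates. Scripts were tested on simulated data.

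The members and lists were chosen with earlier results of these data known. All members are named, and from other lists the genes past the threshold (up to 3 a list, smallest adjusted p first) and a fixed set, of which 1 gene is not reported here. Mr1, Psme3, Rfxap, Rfxank, H2-L, H2-Q1, H2-Q5, H2-Q6, H2-Q8, H2-Q9, H2-Q10 and the class II genes other than Cd74 were named after their values were seen. Gene positions and exons are from GENCODE M21 (GRCm38) and promoters from RefSeq (GRCm38.p6). Likeness used genes of at least 1 CPM on average. The marker lists also held 5 fibroblast genes, which summed to 35.5 to 38.2 CPM in untreated libraries and 27.5 to 28.8 CPM in libraries labelled doxycycline. Nearly all of this was Pdgfra, at 35.2 to 37.6 CPM and 27.3 to 28.6 CPM. Pdgfra was lower (log2 fold change -0.40, adjusted p = 0.000952, edgeR), and Lum was at 0 in all libraries. The 3 endothelial genes summed to under 0.7 CPM. Krt19 was lower among the 7 epithelial genes (-0.31, adjusted p = 0.00782). Other scalings, filters, a replicate block and leaving out each library were the alternatives.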

Additional observations from a re-analysis of the deposited data

How the results depend on the processing

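The number of members called was 0 under all 8 other scalings, filters and tests, and 0 to 2 when each library was left out in turn, the 2 being H2-D1 and Psmb8 without doxycycline replicate 2. The median log2 fold change of the members ran from -0.14 to -0.024 in those runs and stayed between -0.094 and -0.084 under the others. Over all genes 404 were called, 523 with the DESeq2 Wald test, 397 with limma voom, 649 without a filter and 160 to 756 when a library was left out. The 756, of 13237 genes tested, came without doxycycline replicate 2, the run in which H2-D1 and Psmb8 were called. Of the other pathway genes 1 was called, 2 without a filter (Mr1 and Jak2) and 1 to 5 when a library was left out. The 5, without doxycycline replicate 2, were Mr1, Irf1, Psme3, H2-Q4 and Jak2.

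Estimates near 0 changed sign in some runs. When a library was left out, Tap1 ran from -0.38 to 0.033, Tap2 from -0.36 to 0.014, Psmb9 from -0.22 to 0.28, Psmb10 from -0.033 to 0.030 and Nlrc5 from -0.060 to 0.083 on the log2 scale. Sign changes came without doxycycline replicate 2 (Psmb9, Psmb10, Nlrc5), doxycycline replicate 1 (Tap2), doxycycline replicate 3 (Tap1), untreated replicate 1 (Psmb10, Nlrc5) and untreated replicate 3 (Psmb9). Psmb10 was also at -0.0035 with library size only. The log2 ratio of Psmb9 to Psmb6 differed by -0.029 and ran from -0.29 to 0.19 when a library was left out, above 0 without untreated replicate 1 or 2 or doxycycline replicate 3. The ratios of Psmb8 to Psmb5 (-0.37 to -0.22) and Psmb10 to Psmb7 (-0.095 to -0.024) kept their sign. Causes were not tested.

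The replicate numbers are shared between groups, but same-numbered libraries did not deviate together (correlations -0.040, -0.0045 and 0.018) and none of the untreated libraries correlated best with its own number. With the replicate block 418 genes, 0 members and 1 other pathway gene were called, and the ratio differences of Psmb8, Psmb9 and Psmb10 to their counterparts were -0.31, -0.029 and -0.051 (smallest exact p that 3 sign changes allow 0.25). Depth limits Psmb9 most, with 23 to 54 counts a library.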
